A study of Homo sapiens with 10 samples.

Results

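Gene expression in untreated CH157-MN cells was described from the 5 libraries of PBS-treated cells among the 10 libraries of the study. CH157-MN is an established human cell line that the labels describe as meningioma. PBS, phosphate-buffered saline, was the vehicle of the control group. PBS cells have no dose. The other 5 libraries were from cells that received 100 nM of hSSTR2-MMAF, an antibody-drug conjugate against the human receptor SSTR2 that carries the tubulin poison MMAF, and were not used here. The members are thus 5 samples of 1 cell line under 1 condition, numbered replicates 1 to 5 in the labels, which do not say whether they were separate cultures. The study extracted total RNA, selected messenger RNA on poly-T beads and sequenced it. All values are levels within this condition, so no groups were compared and no test was run.

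Meningiomas grow from the meninges, the membranes around the brain, and are traced to arachnoid cells. Arachnoid cells combine junction proteins typical of epithelia with the vimentin filaments and matrix genes of mesenchyme. Prostaglandin D synthase (PTGDS), the progesterone receptor (PGR) and the somatostatin receptor SSTR2 are among the genes by which they are commonly recognised. In most proliferating cell lines the transcript pool is led by genes for translation, the cytoskeleton, glycolysis and protein folding, while genes of specialised tissues carry few or no reads.

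The table lists 58735 genes, of which 19951 are protein-coding. Total counts per library were 28262162 to 34473795, and 19303 to 19923 genes had at least 1 count. Levels are given on 2 scales. CPM is the count scaled so that a library sums to 1000000. TPM is the count per kilobase of the deposited gene length, scaled to the same sum, and only TPM is used to compare genes with each other. Means are given ± SD over the 5 libraries (n = 5). A count of 0 in 1 library allows up to 3 counts, or 0.0870 to 0.106 CPM, for counting error only. Counts of 2 to 21 were even in 65.7% to 67.1% of cases, against 49.3% to 50.6% of counts of 1000 or more. Whether both mates of a read pair were counted is not given in the sources used here, and if they were, that limit is too low.

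Protein-coding genes split into a broad expressed group and a silent one. A mean of 1 TPM or more was reached by 10959 of them (54.9%) and 10 TPM or more by 7887 (39.5%). No count in any of the 5 libraries was found for 5132 (25.7%). The 108 protein-coding genes at 1000 TPM or more, 0.541% of the protein-coding set, held 18.2% of all counts. The 1716 at 100 to 1000 TPM held 43.9%. The 6063 at 10 to 100 TPM held 33.6%. Protein-coding genes as a whole took 98.5% ± 0.0289 of counts, long noncoding genes 0.601% ± 0.0134 and pseudogenes 0.763% ± 0.0138.

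**Figure D1:**
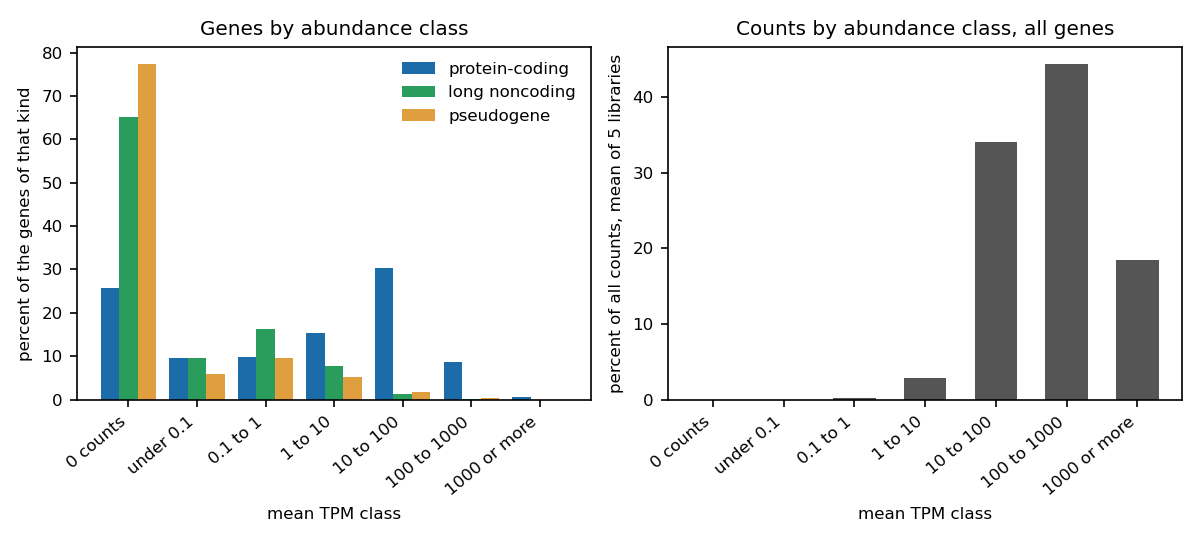
Left, percent of protein-coding, long noncoding and pseudogene entries in each class of mean TPM. Right, percent of all counts held by each class, as the mean of the 5 PBS libraries. 25.7% of protein-coding genes had no count, and the class from 100 to 1000 TPM held the most counts, 44.4%.

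The counts were spread over many genes. The most abundant gene took 1.18% to 1.24% of a library, the first 100 genes 19.5% to 20.5% and the first 1000 genes 53.1% to 54.0%. Between 813 and 854 genes held 50% of the counts. The libraries differed little in these shares.

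EEF1A1, which encodes the elongation factor that brings aminoacyl-tRNA to the ribosome, took the most counts. It measured 11805, 12339.9, 12363, 12129.6 and 12214 CPM in replicates 1 to 5. ACTB, cytoplasmic beta-actin, came next at 6209, 6567, 6153, 6041 and 6442 CPM. EEF1A1 took more counts than ACTB in every library. The cytosolic HSP90 chaperones followed, with HSP90AB1 at 4993, 5296, 5059, 5058 and 5156 CPM and HSP90AA1 at 4921, 4803, 4918, 4957 and 4872 CPM. Both stayed within a narrow band in all libraries. MT-CO1, a mitochondrially encoded subunit of cytochrome oxidase, was the fifth by its mean CPM and ranged from 3113 to 6980.3 CPM, so its place in the order differed between libraries. The glycolytic enzymes ENO1 (4635 ± 131 CPM), GAPDH (4304 ± 105 CPM) and PKM (4215 ± 143 CPM) came next, then the poly(A)-binding protein PABPC1 (4141 ± 97.8 CPM) and the gamma-actin gene ACTG1 (4055 ± 114 CPM). The remainder of the first 25 included the chaperone HSPA8 (3833 ± 64.5 CPM), the ribosomal proteins RPL4, RPL8 and RPL7 (2304 to 3199 CPM on average), the adaptor protein YWHAZ (2911 ± 76.9 CPM), the actin crosslinker FLNA (2645 ± 74.1 CPM), nucleophosmin, NPM1 (2296 ± 37.3 CPM), and the initiation factor EIF4G2 (2183 ± 57.8 CPM). Fibronectin, FN1, and vimentin, VIM, were also among them, at 3779.6 ± 139.8 CPM and 3369 ± 107 CPM.

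**Figure D2:**
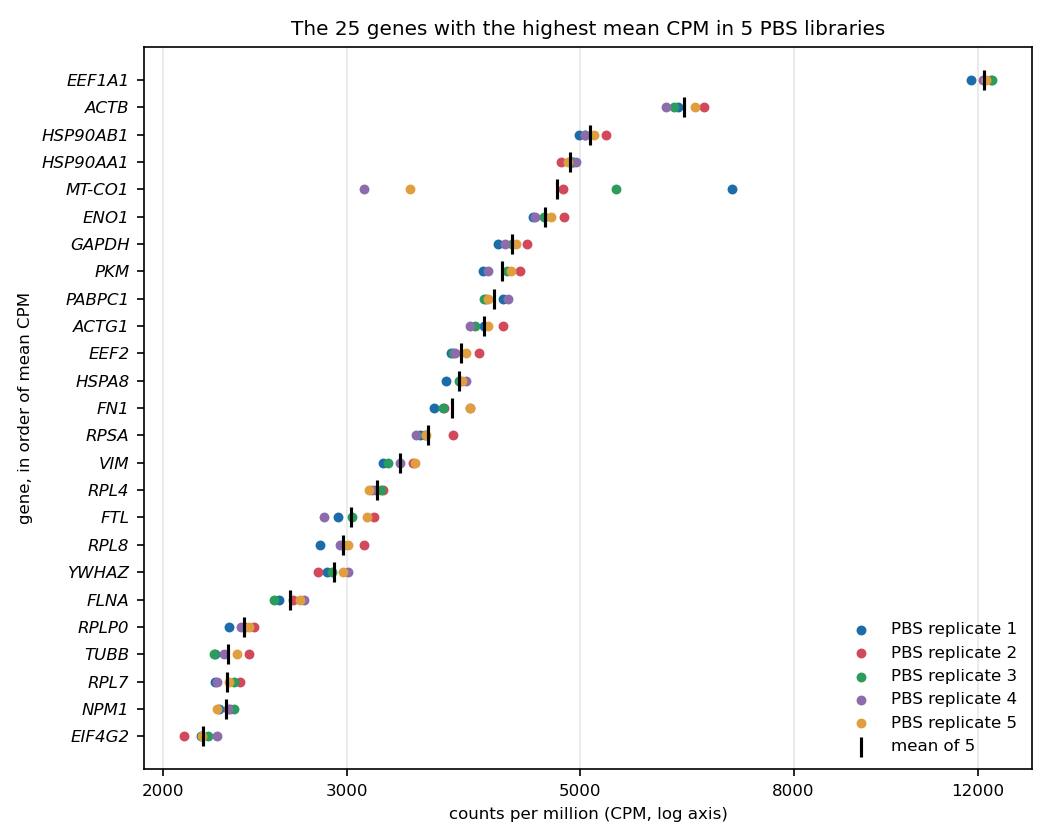
CPM of the 25 genes with the highest mean, on a log axis, with 1 point for each PBS library and a bar at the mean. EEF1A1 lies apart at a mean of 12170.3 CPM, and MT-CO1 has the widest spread of the 25, from 3113 to 6980.3 CPM.

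Per kilobase the order changed. FTL, the light chain of the iron store ferritin, had the highest TPM at 12786, 13923, 13383, 12968 and 14095 TPM. Its deposited length is 878 bases against 5948 for EEF1A1, which measured 7973 ± 227 TPM. MT-CO1, MT-CO3 and MT-CO2 stood between FTL and EEF1A1 by their mean TPM and are described with the spread between libraries. TMSB10, a short actin-binding thymosin, reached 7125 ± 461 TPM and ACTB 6955 ± 227 TPM. The heavy chain gene FTH1 was lower than FTL, at 439 ± 16.5 TPM, but 62.4% of its exonic bases are covered by another gene's exons as well. Of the 25 genes with the highest CPM, 13 were also among the 25 with the highest TPM.

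Among the 100 genes with the highest TPM, 34 encode cytosolic ribosomal proteins, 13 lie on the mitochondrial genome, 6 encode glycolytic enzymes, 5 chaperones and 5 actin or actin-binding proteins. HMGA1, a chromatin protein abundant in embryos and tumours, was in the same 100 at 3290.3 ± 146 TPM, as was the AP-1 factor FOSL1. FOSL1 measured 1204, 1272, 1206, 1284 and 1267 TPM in replicates 1 to 5. FOSL1 was thus below the glycolytic enzyme PKM (1803 to 1978 TPM) in every library.

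The 86 cytosolic ribosomal protein genes took 7.10% ± 0.200 of counts, and 84 of 86 reached 1 TPM, against 54.9% of all protein-coding genes. Translation factors took 3.33% ± 0.0391, actin and its partners 2.73% ± 0.0566, chaperones 2.60% ± 0.0271 and glycolytic enzymes 2.005% ± 0.0508. The proteasome, which degrades ubiquitin-tagged proteins, took 0.941% ± 0.0192, and the nuclear-encoded respiratory chain 0.919% ± 0.0198. Genes of mitosis and DNA replication, the proliferation set, took 0.674% ± 0.0102. Against 39.5% of all protein-coding genes, 25 of these 26 were at 10 TPM or more. Among them were CDC20, the activator of the anaphase ligase (829.9 ± 19.9 TPM), the replication clamp PCNA (673 ± 28.3 TPM) and cyclin B1, CCNB1 (551 ± 17.5 TPM). Cyclin D1, CCND1, measured 451 ± 12.5 TPM, while CCND2 had no count.

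Some members of these ubiquitous complexes had no or few counts, and several of these share sequence with other genes. EEF1G, a subunit of elongation factor 1, had 0 counts in all 5 libraries, and 99.9% of its exonic bases are also in another annotated gene. RPS10 measured 3.33 ± 0.796 TPM with 39.4% overlap and RPL17 7.43 ± 1.33 TPM with 35.3%. MRPL23, by contrast, had 0, 0, 1, 1 and 4 counts with 2.86% overlap. The pseudogene RPS28P7 stood at 4621 ± 327 TPM, above its parent RPS28 at 297 ± 14.7 TPM, and 100.0% of its windows of 100 bases also occur in another gene's transcripts. Counts for such genes depend on how reads with more than 1 match were assigned, which is not given in the sources used here. Reads cannot be divided between them from the table. Among protein-coding genes with no count, 19.2% shared at least 50% of their exonic bases or windows with another gene, against 0.926% of those at 10 TPM or more.

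Promoter sequences from RefSeq (GRCh38.p14, 250 bases before to 50 from the annotated start) were found for 15306 of 19864 protein-coding genes on chromosomes 1 to 22 and X. Ribosomal protein genes and elongation factors are known for a terminal oligopyrimidine tract, a run of C and T at the start of the transcript that couples their translation to growth signals. A run of at least 8 pyrimidines over the start base was present in 42 of 68 ribosomal protein promoters (61.8%) and in 10 of 56 translation factor promoters, against 4.69% of all protein-coding promoters. By level, the share was 3.14% of genes with no count and 3.19% to 5.03% in the classes with counts up to 100 TPM. It was 8.84% at 100 to 1000 TPM and 32.9% (26 of 79) at 1000 TPM or more. The highest class includes ribosomal protein genes already counted here. The stretches below run from 60 bases before the start to the 20th base of the transcript, 5′ to 3′ on the gene's strand. Capitals mark the pyrimidine run over the start and, further upstream, TATAAA where it starts 40 to 20 bases before the start. The first 5 are abundant genes of translation chosen because they carry the run, and FTL, VIM and FN1 are abundant genes of other kinds without it. Not all abundant ribosomal protein genes had the run over the annotated start base: RPL4, at 2211 TPM and not printed, had none there. A stretch of pyrimidines does lie downstream, within the first 20 bases of the annotated RPL4 transcript. The shares given here therefore depend on where the start is annotated.
EEF1A1 chr6:73521013-73521092 (-): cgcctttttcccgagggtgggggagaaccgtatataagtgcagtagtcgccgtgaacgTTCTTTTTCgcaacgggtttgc
EEF2 chr19:3985444-3985523 (-): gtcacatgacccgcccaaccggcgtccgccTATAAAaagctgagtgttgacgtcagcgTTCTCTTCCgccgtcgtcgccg
RPSA chr3:39406660-39406739 (+): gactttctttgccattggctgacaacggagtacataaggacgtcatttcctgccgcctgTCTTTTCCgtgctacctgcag
RPLP0 chr12:120201092-120201171 (-): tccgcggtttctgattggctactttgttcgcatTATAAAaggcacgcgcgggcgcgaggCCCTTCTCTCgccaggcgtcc
RPS3 chr11:75399458-75399537 (+): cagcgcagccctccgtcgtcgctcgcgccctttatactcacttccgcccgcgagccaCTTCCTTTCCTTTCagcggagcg
FTL chr19:48965249-48965328 (+): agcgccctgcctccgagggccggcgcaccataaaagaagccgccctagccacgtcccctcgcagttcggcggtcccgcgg
VIM chr10:17228181-17228260 (+): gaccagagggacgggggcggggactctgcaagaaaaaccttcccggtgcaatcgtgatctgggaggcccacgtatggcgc
FN1 chr2:215436049-215436128 (-): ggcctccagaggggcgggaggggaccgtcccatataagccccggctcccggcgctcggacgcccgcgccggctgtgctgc

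EEF2, the translocase of elongation, carried both elements, as did RPLP0, with TATAAA starting 30 and 27 bases before the start. The runs covered 9 bases in EEF1A1, 8 in RPSA and 14 in RPS3. The measured levels of these 5 genes were 7973 TPM for EEF1A1, 3725 for EEF2, 3546 for RPSA, 2327 for RPLP0 and 1327 for RPS3. FTL, without a run of this kind, was higher than all of them at 13431 TPM. A match is only a description of the letters at the annotated start.

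Silent and expressed genes differed in the CpG content of their promoters. The ratio of observed to expected CpG was at least 0.6 in 28.1% of promoters of genes with no count, 77.5% of those at 1 to 10 TPM and 92.3% of those at 100 to 1000 TPM, against 66.6% of all. Median GC content was 53.7% in the silent class and 65.3% at 100 to 1000 TPM. TATAAA in the window on the gene's strand went the other way, from 8.62% of silent promoters to 1.01% at 10 to 100 TPM, and was 7.59% at 1000 TPM or more (6 of 79). GGGCGG, the GC box, searched on both strands over the whole 300 bases, was in 32.1% of silent promoters and 74.2% at 100 to 1000 TPM. CCAAT, searched likewise, differed less, at 36.3% and 40.4%, but was in 78.9% of promoters of the mitosis and replication genes and 82.7% of histone promoters, against 36.6% of all.

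The label gives the cells as meningioma, and few genes typical of arachnoid cells were present. Of 14 arachnoid and meningothelial markers, 3 reached 1 TPM (21.4%), against 54.9% of all protein-coding genes, and 5 had no count in any library. CLDN11, a tight-junction claudin of arachnoid barrier cells and myelin, measured 386, 395, 408, 416 and 408 TPM. KLF4, a factor mutated in a subset of meningiomas, measured 36.0, 36.2, 31.8, 36.8 and 34.7 TPM, and JUP, the junction protein plakoglobin, 5.01, 5.57, 4.79, 5.67 and 6.59 TPM. CLDN11 was thus far above the other markers in every library, and JUP was lowest of the 3. PTGDS, PGR, CDH1 (E-cadherin), ALDH1A2 (a retinoic acid synthase) and SLC47A1 (an organic cation transporter of arachnoid) had 0 counts in all 5 libraries. DSP, desmoplakin, was at 0.0163 ± 0.0187 TPM. The pattern of these libraries is therefore described below by its genes, without a cell type name beyond the label. These are bulk libraries, in which fewer cells of a type and less RNA per cell cannot be told apart.

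Mesenchymal genes were broadly present. Of 24 listed members, 15 reached 10 TPM and 20 reached 1 TPM, against 39.5% and 54.9% of all protein-coding genes. Only decorin (DCN) had no count. The list median was 24.6 TPM, against 2.81 TPM over all protein-coding genes. Vimentin, the intermediate filament of mesenchyme, measured 2403, 2583, 2465, 2611 and 2665 TPM, and FN1 801, 823, 828, 907 and 896 TPM. The collagen VI chains COL6A2 and COL6A1 were at 419 ± 22.1 TPM and 355 ± 16.9 TPM, above the fibrillar chain COL1A1 at 61.4 ± 3.24 TPM. SPARC, a matrix protein that binds collagen, was at 245 ± 6.93 TPM, and N-cadherin, CDH2, at 97.6 ± 4.39 TPM. The growth factor receptors by which fibroblasts are often recognised were low, with PDGFRA at 1.82 ± 0.309 TPM and PDGFRB at 2.06 ± 0.310 TPM.

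Matricellular proteins, secreted regulators of adhesion, took 1.09% ± 0.0224 of counts. Against 39.5% of all protein-coding genes, 16 of the 18 members were at 10 TPM or more. Among them were galectin-1, LGALS1 (1962 ± 86.4 TPM), and CYR61 (1020.3 ± 29.2 TPM), and below FN1 thrombospondin-1, THBS1 (444 ± 23.5 TPM), and CTGF (247 ± 10.6 TPM). CYR61 and CTGF are widely used as targets of the YAP and TEAD factors, and all 4 TEAD genes reached 10 TPM, led by TEAD4 at 209, 216, 226, 219 and 228 TPM. Of 44 collagen chains, 19 reached 1 TPM (43.2%) and 12 had no count (27.3%), against 54.9% and 25.7% of all protein-coding genes. Integrin beta-1, ITGB1, was the leading integrin at 858 ± 34.8 TPM, with the laminin-binding alpha chains ITGA3 (283 ± 10.2 TPM) and ITGA6 (219 ± 6.97 TPM) next.

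Most markers of other cell types were under 1 TPM. Of all protein-coding genes, 54.9% reached that level and 25.7% had no count. KRT18 was the single epithelial marker above 10 TPM, at 255, 264, 249.8, 247 and 281 TPM, and its usual partner KRT8 measured 4.29, 5.05, 6.21, 5.88 and 5.10 TPM. The 2 keratins thus lay far apart in every library. CDH1, CDH3, ESRP1, KRT5, OVOL1, GRHL2 and KRT14 had no count, and EPCAM was at 0.111 ± 0.191 TPM. None of 19 leukocyte markers reached 1 TPM and 10 had no count, their summed level being 0.833 to 3.64 TPM per library. The endothelial list had 1 of 10 at 1 TPM or more (TIE1, 4.77 ± 0.287 TPM), with TEK, CDH5 and EMCN at 0. Neuronal markers had 2 of 14, SNAP25 (1.27 ± 0.147 TPM) and SYT1 (1.09 ± 0.512 TPM). The astrocyte and oligodendrocyte list had 3 of 12, CNP (42.3 ± 1.44 TPM), the glutamate transporter SLC1A3 (17.2 ± 1.08 TPM) and MBP (11.1 ± 0.781 TPM), while S100B, OLIG2 and MOG had no count. PMP22 (47.7 ± 2.63 TPM) and MITF (4.73 ± 0.689 TPM) were the 2 Schwann cell and melanocyte markers above 1 TPM, and SOX10 had no count. The cartilage factor SOX9 was at 72.6 ± 3.98 TPM, and cartilage collagen, COL2A1, had no count. The pericyte and smooth muscle list had 3 of 9 at 1 TPM or more, the proteoglycan CSPG4 (54.2 ± 1.99 TPM), the adhesion protein MCAM (10.3 ± 0.737 TPM) and the actin-binding TAGLN (6.58 ± 0.864 TPM). The actin ACTA2 was at 0.279 ± 0.166 TPM, and 1 member, DES, had no count.

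**Figure D3:**
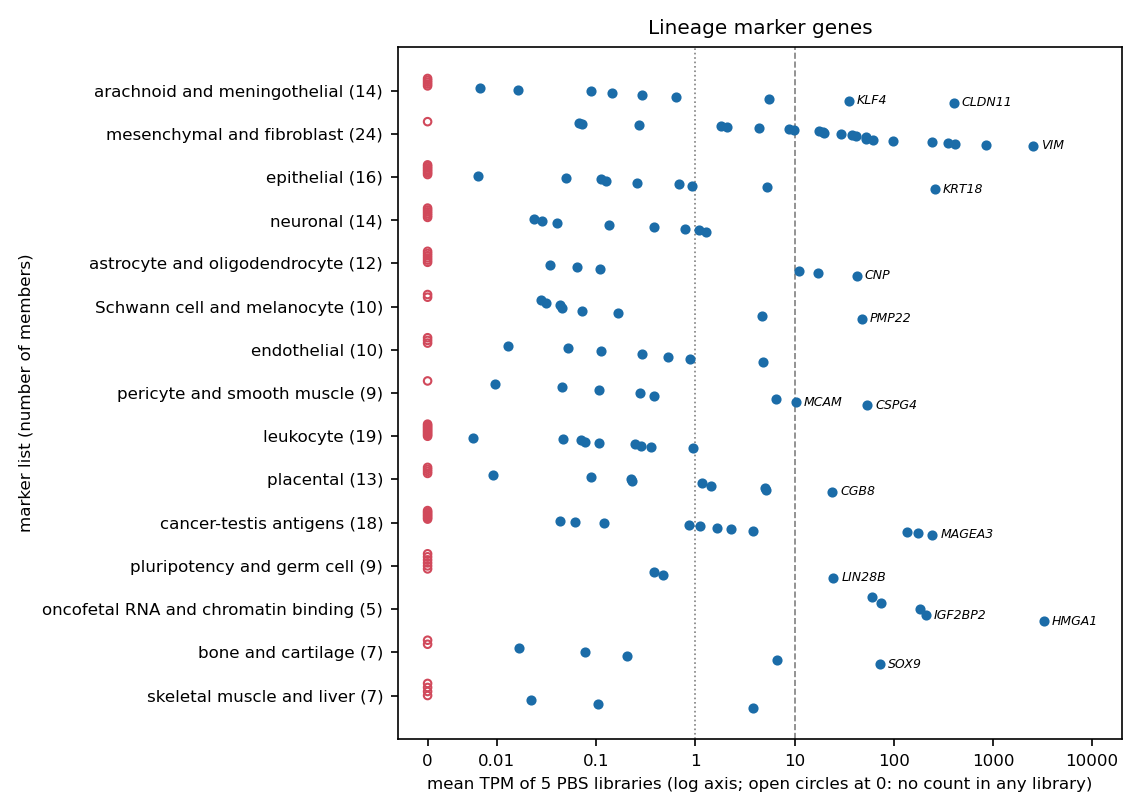
Mean TPM of each marker (points, log axis) by lineage list, with the number of members in parentheses; red open circles at 0 are genes with no count in any of the 5 libraries. The dotted and dashed lines mark 1 and 10 TPM. The mesenchymal list has 20 of 24 members to the right of 1 TPM, and the leukocyte list none.

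Genes that are normally restricted to germ cells or the embryo were selectively present. MAGEA3, a cancer-testis antigen of the X chromosome (chromosome X, 152698752 to 152702347), measured 236, 244, 250.4, 255 and 244 TPM. Its neighbours in the family, MAGEA6 and MAGEA12, were at 174 ± 7.85 TPM and 138 ± 9.18 TPM. MAGEA3 and MAGEA6 share 34.9% and 33.0% of their windows with other genes, so their split is uncertain. MAGEA1, SSX2, PAGE1, PAGE5, GAGE1, XAGE1B and DDX53 had no count. A level of 1 TPM was reached by 7 of 18 antigens (38.9%), against 54.9% of all protein-coding genes. LIN28B, a blocker of let-7 microRNA maturation, was at 22.6, 23.8, 25.1, 24.3 and 27.2 TPM, while LIN28A, NANOG, SOX2 and DPPA4 had no count. The oncofetal RNA-binding proteins IGF2BP2, IGF2BP1 and IGF2BP3 were at 211 ± 8.96 TPM, 74.9 ± 2.52 TPM and 61.0 ± 4.57 TPM, and the chromatin protein HMGA2 at 183 ± 8.56 TPM. All 5 members of that list thus exceeded 10 TPM. CGB8, a chorionic gonadotropin beta gene, was at 24.1 ± 1.55 TPM with 64.2% of its windows shared with its copies, and the common alpha subunit CGA had no count.

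Transcription factors included position factors of the trunk and mesenchyme, while OTX2, EMX2 and 6 of 9 PAX genes had no count. The deposited table assigns 1547 genes outside the Y chromosome to factor families, of which 961 (62.1%) reached 1 TPM. Homeobox genes were below that share, with 64 of 192 (33.3%), as were T-box genes with 5 of 17 (29.4%) and forkhead genes with 20 of 47. The basic leucine zipper family was above it, with 37 of 48, led by FOSL1 and JUN (479.5 ± 17.0 TPM).

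FOXD1, a forkhead factor of stromal progenitors, measured 326, 434, 329, 363 and 422 TPM, higher in replicates 2 and 5 than in the others, and FOXM1, a factor of the G2 phase, 243 ± 10.2 TPM. PITX1, a hindlimb homeobox gene, led the homeobox family at 92.6 ± 4.90 TPM. SIX2 was at 62.1, 56.0, 58.5, 63.5 and 59.8 TPM and ZIC2 at 62.0, 62.8, 62.0, 63.1 and 65.0 TPM. Both families act in craniofacial development. TBX3, TBX15 and TBX18, T-box genes of limb and mesenchyme, were at 24.4 ± 2.95 TPM, 23.5 ± 1.85 TPM and 10.3 ± 1.06 TPM. Of 39 HOX genes, which specify position along the trunk, 22 reached 1 TPM (56.4%), close to the 54.9% of all protein-coding genes. A level of 10 TPM was reached by 4: HOXB2 (42.7 ± 2.39 TPM), HOXB7 (38.2 ± 3.14 TPM), HOXD10 (15.1 ± 1.60 TPM) and HOXA10 (10.7 ± 1.29 TPM). The ranges of HOXB2 and HOXB7 overlapped, and below HOXA10 most neighbours in the order were not apart, 19 of 21 neighbouring pairs of the family overlapping between libraries. Members of all 4 HOX clusters, A to D, were above 1 TPM, with HOXC8 first in cluster C at 7.87 ± 1.64 TPM. By contrast, PAX1, PAX2, PAX3, PAX4, PAX5 and PAX7 had no count. PAX6, at 3.03 ± 0.383 TPM, and PAX9 were the 2 of 9 PAX genes at 1 TPM or more. Of the 4 listed OTX and EMX genes, the forebrain genes OTX2 and EMX2 had no count, while OTX1 reached 1 TPM.

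Somatostatin receptors, of which SSTR2 is the target of the study's conjugate, were at the lower edge of detection. SSTR2 (chromosome 17, 73165012 to 73176633) had 8, 9, 22, 4 and 3 counts in replicates 1 to 5, which is 0.115, 0.128, 0.366, 0.0721 and 0.0441 TPM. Replicate 3 was thus the highest, and the mean of 0.145 TPM fell to 0.0898 TPM without it. SSTR1 had 22, 17, 22, 33 and 19 counts (0.657 ± 0.255 TPM) and SSTR3 4, 0, 2, 0 and 0. SSTR4 and SSTR5 had none. SSTR1 exceeded SSTR2 in TPM in every library, although both had 22 counts in replicate 3, and none of the 5 reached 1 TPM. The SSTR2 promoter had a GC content of 70.0% and a CpG ratio of 0.735, values found more often among expressed than among silent genes, and is printed here from 60 bases before the start to the 20th base.
SSTR2 chr17:73164950-73165029 (+): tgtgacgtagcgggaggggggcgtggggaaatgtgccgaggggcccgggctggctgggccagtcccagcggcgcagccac

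Receptor tyrosine kinases were led by AXL, the receptor of the ligand GAS6. AXL measured 636, 621, 624, 661 and 656 TPM. EPHA2, an ephrin receptor, measured 247, 255, 239.7, 258 and 263 TPM, EGFR 104, 94.4, 106, 108 and 105 TPM and MET, the hepatocyte growth factor receptor, 79.8, 80.2, 79.5, 87.7 and 81.4 TPM. The library ranges of these 4 did not overlap with each other, so their order held in all 5 libraries. From DDR2 (45.8 ± 2.57 TPM) through RYK (44.5 ± 1.78 TPM) and EPHB2 (43.3 ± 2.95 TPM) to EPHB4 (36.6 ± 1.999 TPM) neighbouring ranges overlapped. Of 58 members, 22 reached 1 TPM (37.9%) and 13 had no count (22.4%), against 54.9% and 25.7% of all protein-coding genes. Those without a count included FGFR2, NTRK2, NTRK3, ERBB4 and FLT4. ERBB2 was at 3.37 ± 0.255 TPM.

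Other receptor families had the following leaders. Among 53 cytokine receptors, 19 reached 1 TPM (35.8%, against 54.9% of all protein-coding genes). The decoy receptor IL13RA2 was first at 182, 186, 196, 199.8 and 193 TPM, followed by IL6ST, the shared subunit gp130, at 124 ± 8.90 TPM. TGFBR2, the type II receptor of TGF-beta, measured 488, 456, 484, 501 and 474 TPM, and its type I partner TGFBR1 20.4 ± 1.13 TPM. Endoglin, ENG, a co-receptor of the same family, was at 151 ± 7.08 TPM. Among nuclear receptors the orphan receptor NR2F2 was first at 108 ± 5.10 TPM, the glucocorticoid receptor NR3C1 was at 50.6 ± 3.25 TPM, and PGR had no count. Of 306 G protein-coupled receptors, 134 had no count (43.8%, against 25.7% of all protein-coding genes). Another 102 had counts but stayed under 1 TPM, and 70 reached 1 TPM (22.9%, against 54.9%). Among the highest were ADGRL4, an adhesion receptor (221, 215, 221, 233 and 221 TPM), and the Wnt receptors FZD8 (116 ± 4.01 TPM) and FZD6 (108 ± 3.68 TPM).

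**Figure D4:**
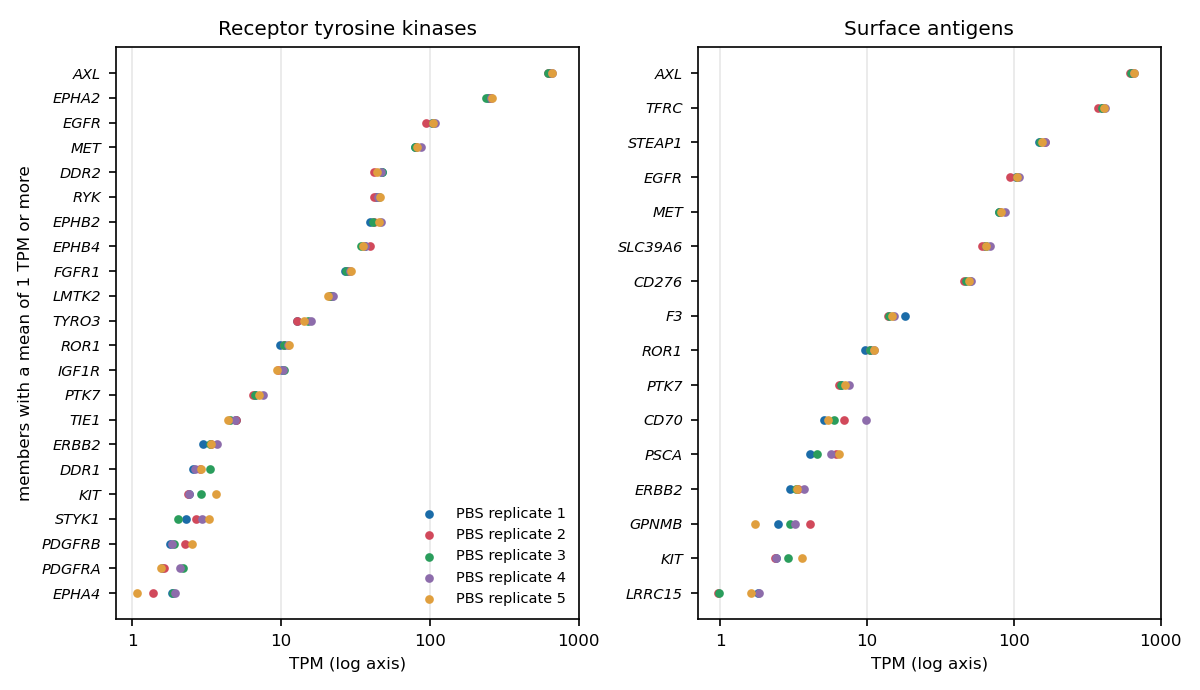
TPM in each PBS library (points, log axis) of the receptor tyrosine kinases and of the surface antigens with a mean of 1 TPM or more, in order of the mean. AXL is first in both lists, at 621 to 661 TPM, and its values lie above those of all other members in every library.

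Surface proteins that are targets of antibody conjugates in general were examined as a list of 51 genes. A level of 1 TPM was reached by 16 (31.4%) and 17 had no count (33.3%), against 54.9% and 25.7% of all protein-coding genes. After AXL came the transferrin receptor TFRC at 398, 374, 399.9, 419.7 and 410.3 TPM, then STEAP1, a metalloreductase, at 148, 162, 151, 163 and 155 TPM. EGFR and MET followed, then the zinc transporter SLC39A6 (64.6 ± 2.89 TPM) and CD276, also named B7-H3 (48.8 ± 2.27 TPM). Neighbours from AXL to PTK7 did not overlap. CEACAM5, FOLR1, DLL3, FOLH1 and VTCN1 had no count. The uptake and release genes for such conjugates were nearly all present, 17 of 18 at 1 TPM or more (94.4%, against 54.9% of all protein-coding genes). The list included the lysosomal protease CTSB at 213 ± 6.06 TPM, the late endosome GTPase RAB7A at 701 ± 21.9 TPM, LAMP1 at 367 ± 11.6 TPM and caveolin-1, CAV1, at 349 ± 8.02 TPM. The exception was the efflux pump ABCB1, with 0, 0, 0, 0 and 3 counts, whereas the pumps ABCC1 and ABCG2 were at 26.6 ± 0.803 TPM and 6.73 ± 0.578 TPM. Class I HLA genes, which present peptides, were led by HLA-E at 144 ± 6.44 TPM, with HLA-B at 67.0 ± 3.43 TPM and HLA-C at 48.5 ± 3.42 TPM, and B2M at 242 ± 6.64 TPM. Another listed class I gene lay between HLA-B and HLA-C at 52.8 TPM, the median of the 7 listed genes.

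Genes mutated in meningioma were mostly transcribed. Of 21 listed, 17 reached 1 TPM (81.0%), against 54.9% of all protein-coding genes. NF2, which encodes the tumour suppressor merlin, measured 29.1, 30.6, 31.2, 28.8 and 32.7 TPM, TRAF7 76.8 ± 4.27 TPM, AKT1 56.1 ± 1.96 TPM and BAP1 133 ± 3.86 TPM. The Hedgehog transducer SMO had 12, 10, 10, 7 and 8 counts. TERT, the telomerase catalytic subunit, measured 6.19, 7.05, 4.35, 4.21 and 4.64 TPM.

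CDKN2A and CDKN2B, inhibitors of the cyclin D kinases that are deleted in some meningiomas, had no count in any library. CDKN2A lies on chromosome 9, 21967753 to 21995301, and CDKN2B on chromosome 9, 22002903 to 22009363. Their neighbour MTAP was at 1.31 ± 0.168 TPM, and DMRTA1 on the other side at 1.06 ± 0.293 TPM. All 13 interferon alpha genes of the same stretch, IFNB1 and IFNW1 had no count, which is usual for unstimulated cells, but KLHL9, which lies among them, measured 30.7, 30.2, 34.2, 36.2 and 33.9 TPM. FOCAD, further toward the chromosome's end, was at 27.6 ± 1.34 TPM. The overlap of CDKN2A's exons with other genes was 7.88% and that of CDKN2B 0%. RNA counts do not tell whether the DNA is present.

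Several gene families of specialised tissues were silent almost throughout. Outside the Y chromosome 5088 protein-coding genes had no count, and 686 of them belong to the families listed for this purpose. Olfactory receptors, the odorant receptors of the nose, had none in 367 of 386 (95.1%), against 25.7% of all protein-coding genes. The highest of them, OR2AG2, was at 0.940 ± 0.143 TPM. The late cornified envelope genes of the epidermis were silent in 18 of 18, beta-defensins in 38 of 39, C-type lectins in 26 of 31 and keratin-associated proteins of hair in 85 of 94. Cytochrome P450 genes were silent in 30 of 55, with CYP1B1 the highest at 29.2 ± 1.01 TPM. Protocadherins, adhesion proteins of neurons, had no count in 14 of 65 (21.5%), against 25.7% of all protein-coding genes. Another 47 had counts but stayed under 1 TPM. Only 4 protocadherins reached 1 TPM (6.15%), against 54.9% of all protein-coding genes. ZNF zinc finger genes had no count in 34 of 475 (7.16%). Solute carriers, without a count in 92 of 364 (25.3%), were close to the 25.7% of all protein-coding genes.

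Channels and sensory genes of other tissues were silent in part. No count was found for 16 of 40 voltage-gated potassium channels (40%) and 21 of 37 GABA and glutamate receptor channels (56.8%). Of 27 taste receptors, 16 had none (59.3%). The share over all protein-coding genes was 25.7%. No taste receptor reached 1 TPM. Keratins had no count in 36 of 55 (65.5%).

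One hair gene stood apart from its family. KRTAP2-3 had 745, 874, 645, 641 and 745 counts, or 96.3, 111, 96.3, 104 and 98.3 TPM, while 85 relatives had none and the next, KRTAP2-4, was at 3.09 ± 0.650 TPM. KRTAP2-3 shares 34.0% of its windows with another gene.  TATAAA was present in 34 of 80 keratin-associated promoters and in 5 of 17 late cornified envelope promoters, against 3.68% of all. The stretches of the expressed KRTAP2-3 and of the silent KRTAP19-1, LCE2A and IFNA2 are shown for comparison with COL6A2 and TFRC, expressed genes with TATAAA and many CpG. Capitals are as above.
KRTAP2-3 chr17:41060095-41060174 (-): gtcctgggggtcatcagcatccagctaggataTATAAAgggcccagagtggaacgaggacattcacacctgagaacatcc
KRTAP19-1 chr21:30480348-30480427 (-): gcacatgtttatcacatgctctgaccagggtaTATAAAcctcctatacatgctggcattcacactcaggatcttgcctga
LCE2A chr1:152698285-152698364 (+): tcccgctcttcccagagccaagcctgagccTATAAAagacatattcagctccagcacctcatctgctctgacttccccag
IFNA2 chr9:21385379-21385458 (-): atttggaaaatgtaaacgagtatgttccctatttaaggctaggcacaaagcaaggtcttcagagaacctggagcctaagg
COL6A2 chr21:46098052-46098131 (+): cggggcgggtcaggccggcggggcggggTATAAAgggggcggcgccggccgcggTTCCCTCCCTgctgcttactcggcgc
TFRC chr3:196082071-196082150 (-): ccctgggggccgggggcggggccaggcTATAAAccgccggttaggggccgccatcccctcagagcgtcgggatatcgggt

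The CpG ratio over the whole 300 bases was 0.238 for KRTAP2-3, 0.0726 for KRTAP19-1, 0.159 for LCE2A and 0.104 for IFNA2, against 0.767 for COL6A2 and 0.920 for TFRC. TATAAA started 28 bases before the start in both KRTAP genes. Of the 306 olfactory receptor promoters found, 5 had TATAAA in this window and their median GC content was 37.7%, so the silent families did not share 1 promoter type beyond few CpG.

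Silent genes often lay side by side. Among protein-coding genes ordered by their start on chromosomes 1 to 22 and X, 42 runs of at least 10 silent neighbours held 735 genes, 14.5% of the silent set. The longest, 64 genes from OR4B1 to OR5AK2 on chromosome 11 (48216810 to 56989867, hg38), had 57 olfactory receptors. The run of 45 from GCSAML to OR14I1 on chromosome 1 (247507058 to 248682304) had 41. A run of 36 from LCE5A to LELP1 on chromosome 1 (152510844 to 153205120) held all 18 late cornified envelope genes, with involucrin and the small proline-rich genes of the epidermis. On chromosome 21, 35 genes from CLDN17 to KRTAP19-8 (30165564 to 31038476) included 33 keratin-associated proteins, and 30 genes from DEFB4B to USP17L3 on chromosome 8 (7414860 to 7977985) included 12 beta-defensins. The share of silent protein-coding genes per chromosome ran from 19.3% on chromosome 13 to 40.7% on chromosome 21, with 37.6% on X and 35.0% on 11.

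Noncoding and pseudogene entries added little. Of 14994 long noncoding genes, 1357 reached 1 TPM and 65.1% had no count. The one with the most counts was LRRC75A-AS1 (353 ± 9.23 CPM), followed by NORAD (281 ± 15.7 CPM), which binds PUMILIO proteins, then FGD5-AS1 (183 ± 7.20 CPM) and the snoRNA host genes GAS5 (122 ± 5.46 CPM), SNHG6 (94.998 ± 3.20 CPM) and SNHG7 (92.4 ± 1.67 CPM). TUG1, SNHG1, OIP5-AS1 and SNHG16 were between 71.0 and 71.6 CPM on average. MALAT1, a nuclear RNA that leads the noncoding pool of many tissues, was at 11.8, 7.12, 11.1, 12.4 and 11.3 TPM, lowest in replicate 2, and NEAT1 at 6.03 ± 1.03 TPM. Both were below LIN28B in TPM in every library. An effect of the poly-T selection on the MALAT1 and NEAT1 levels was not tested.

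The 5 libraries were close to each other. Pearson's r of log2(CPM + 1) across 12359 genes with a mean of at least 1 CPM was 0.9948 to 0.9957 between pairs of libraries, and genes are not independent replicates. The median difference between 2 libraries was 1.06-fold to 1.08-fold, and 11 to 36 genes were at least 2-fold apart. On the first principal component, with 29.3% of the variance, replicate 2 stood at -14.2 and the others between -2.93 and 6.62. The second component held nearly as much, 25.7%, with replicate 3 at 10.1 and replicate 4 at -12.2 as its ends. Without replicate 2 the median spread beyond counting noise fell from 4.59% to 3.85%.

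Spread depended on abundance. The coefficient of variation (CV), the SD of CPM as a percent of its mean, had a median of 17.6% for genes at 1 to 10 CPM, 6.20% at 10 to 100 CPM and 3.43% at 100 to 1000 CPM. With the variance of counting removed, the median over 8821 genes at 10 CPM or more was 4.59%. The common biological coefficient of variation that edgeR estimated for 13222 genes with an intercept-only model was 7.37%. By gene class the median CV was 2.31% for chaperones, 2.92% for glycolysis, 2.91% for mitosis and replication genes and 3.83% for cytosolic ribosomal proteins. WDR5, a subunit of histone methyltransferases, was among the 5 least variable protein-coding genes at 179.6, 179.7, 181, 181 and 181 CPM. ANKRD40, RAP2A, ARF6 and ATL3 were the others, with a CV between 0.415% and 0.491%. Those values are below the counting noise itself, 1.10% to 2.10%, and are the extreme of 8579 genes.

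**Figure D5:**
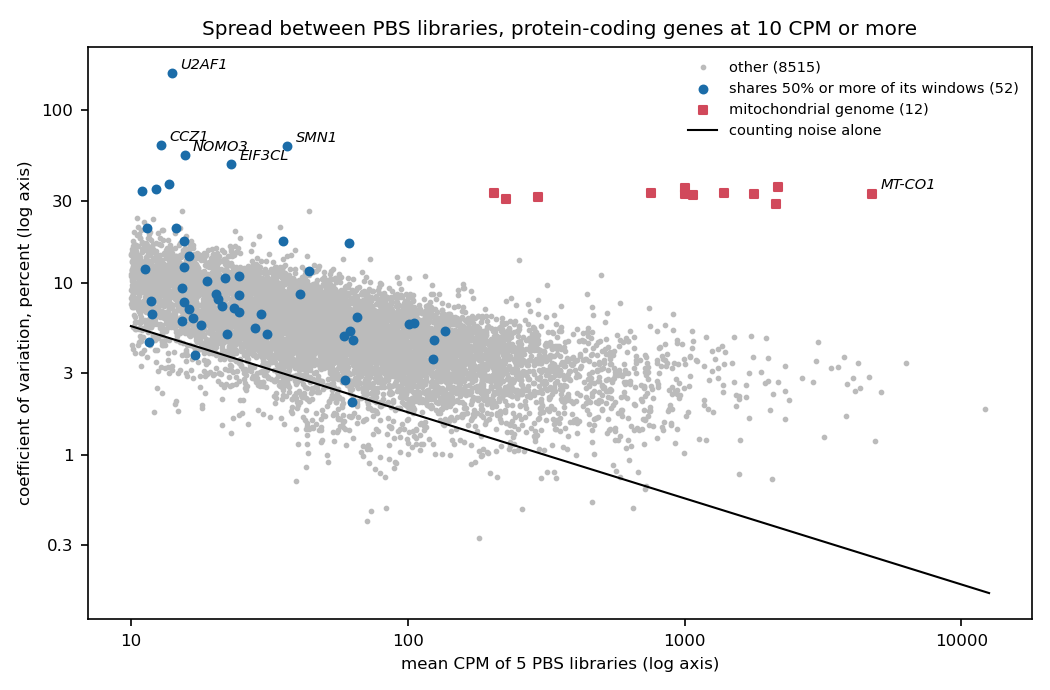
CV of CPM over the 5 PBS libraries against mean CPM for protein-coding genes at 10 CPM or more, both axes log. The line is the CV that counting alone would give. The 12 mitochondrially encoded genes (squares) lie at 28.5% to 35.8% at every level, and the 6 genes above them, with U2AF1 at 165% first, share at least 50% of their windows with another gene (large dots).

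The mitochondrial genome varied as a block. Its share of counts was 2.63, 1.82, 2.03, 1.19 and 1.31% in replicates 1 to 5, a ratio of 2.21 between replicates 1 and 4. Of the 14 mitochondrial genes at 10 CPM or more, 13 were highest in replicate 1, 13 were lowest in replicate 4 and 12 had the same order of all 5 libraries. MT-CO1 measured 17299.7, 12016, 13585, 8072 and 8817 TPM, MT-CO3 14359, 10908, 12013, 7298 and 8304 TPM and MT-CO2 14651, 9959, 11436, 6872 and 7549 TPM. The nuclear-encoded respiratory chain did not show this order, its share being 0.900, 0.951, 0.920, 0.906 and 0.919%. Among 37 listed mitochondrial genes, 20 had no count, all of them tRNA genes.

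Outside the mitochondrial genome, most of the widest spread belonged to genes with near-identical copies. An excess CV above 20% was found for 30 protein-coding genes at 10 CPM or more, of which 12 were mitochondrial and 10 of the remainder shared at least 50% of their windows with another gene. Genes that share this much number 52 of 8579. U2AF1, a splicing factor that recognises the 3′ splice site, measured 55.4, 2.90, 3.14, 4.71 and 3.98 CPM and its copy U2AF1L5 11.1, 11.1, 21.9, 15.4 and 9.03 CPM. The U2AF1 mean rested on replicate 1 and was 4.85 TPM with it and 1.30 TPM without. The 2 genes together still had a CV of 80.1%. SMN1, whose loss causes spinal muscular atrophy, measured 22.9, 45.1, 20.01, 73.2 and 22.5 CPM against 21.8, 25.1, 26.7, 23.1 and 26.2 CPM for SMN2, and their sum had a CV of 36.0% against 62.0% for SMN1. For CCZ1, a vesicle fusion factor, the CV was 62.9% alone and 24.4% with CCZ1B. For NOMO3 it was 55.0% alone and 10.4% with NOMO1 and NOMO2, and for EIF3CL 48.6% alone and 21.7% with EIF3C. After these 5 genes came U2AF1L5, MT-ND4, MT-CYB, GPR89A (34.9%) and CBS (34.2%). With its copy GPR89B, whose own CV was 51.4%, GPR89A had a CV of 33.8%. CBS with its copy CBSL had a CV of 33.0%. CBSL averaged only 0.191 CPM against 10.9 CPM for CBS, so adding it could change the CV little. These genes were picked for their wide spread, and several partners varied less than the sums, with a CV of 8.49% for SMN2, 17.5% for CCZ1B, 11.98% for EIF3C and 37.7% for U2AF1L5. The median CV of all genes at this level was 5.32%.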

How the data were processed

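Total RNA of CH157-MN cells was sequenced after poly-T selection, per the labels' protocols. The authors deposited 1 table of whole-number counts per gene, not normalized, with gene lengths in bases, positions and transcription factor families. The submitters' processing notes name HISAT2, HISAT, TopHat2 and hg38 without a role. The sources used here name neither the counting tool nor its strand setting. The deposited length and coordinates of all 58735 genes equalled the union of exons in GENCODE 29, from which exon overlap and shared windows of 100 bases were taken, on either strand. The names and biotypes were those of the table.

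CPM, TPM and CV were computed from the 5 PBS columns, with no test. Counting noise was taken as Poisson. The computation that removes counting noise was checked on simulated data. With a true CV of 30% in 200 of 8821 genes, the median recovered was 27.5%, since an SD from 5 libraries has a median below its true value. The simulated counts were drawn with Poisson noise, the same noise that was removed. The check therefore cannot tell whether the counting noise of these libraries was Poisson. edgeR (4.0.16) gave TMM factors and the dispersion, DESeq2 (1.42.0) size factors, for the alternatives. The gene lists and the genes named were chosen with earlier results of these data known. Named were the 25 genes with the highest CPM and the 15 protein-coding genes with the highest TPM, in each of 76 lists the 4 highest members and up to 5 with no count, the somatostatin receptors, the 10 most abundant long noncoding genes, the genes with the largest and smallest spread and the longest silent runs; further genes were named after their values were seen, such as relatives, neighbours and partners of these. Not all genes covered by this rule are named in the text. Y-linked genes and XIST were left out of every list.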

Additional observations from a re-analysis of the deposited data

Results flagged for a closer look

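Of 149 sets of 5 library values, 8 (5.37%) had 1 library far from the other 4 by Dixon's criterion, which chance alone meets in about 1 in 20 sets. U2AF1 was at 19.1 TPM in replicate 1 against 1.003 to 1.69 TPM in the others. SSTR2 was at 0.366 TPM in replicate 3 against 0.0441 to 0.128 TPM, and its mean was 0.0898 TPM without that library. MET was at 87.7 TPM in replicate 4 against 79.5 to 81.4 TPM. Replicate 2 was low for MALAT1, at 7.12 TPM against 11.1 to 12.4 TPM, and high for the pseudogene RPS28P7, at 5184 TPM against 4359.9 to 4596 TPM. The RUNX genes took 0.0186% of counts in replicate 2 against 0.0198% to 0.0202%, and translation factors 3.26% in replicate 1 against 3.34% to 3.36%. The neuronal markers took 0.000550% in replicate 5 against 0.000358% to 0.000402%.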

How the results depend on the processing

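Counts per kb in place of counts moved the number of genes that hold 50% of the total from 834 to 514 on average, the share of ribosomal protein genes from 7.10% to 9.25%, the mitochondrial share from 1.80% to 7.13%, and kept 13 of the 25 most abundant genes. Without the filter at 10 CPM the median CV beyond counting noise was 13.5% in place of 4.59%, since rarer genes then count, and with counts halved for both mates 3.78%. Leaving out each library in turn gave 5277 to 5330.0 silent protein-coding genes (5132 with all 5), 11063 to 11073 genes at 1 CPM or more (11065), and a mitochondrial share of 1.59 to 1.95%. Genes with a mean under 0.1 CPM numbered 7075. TMM and DESeq2 factors moved none of 83 named levels by more than 1 SD. The length of the longest transcript, an alternative chosen after seeing the data, moved 70 of them by more than 1 SD, to between 0.716 and 2.04 times the value, and 5 by over 1.5 times: PKM (3901 TPM), KRT8 (9.14), LRRC75A-AS1 (594), GAS5 (200.1) and U2AF1 (8.29). No paired analysis was possible because only 1 group was described.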

Other observations

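Other gene groups gave further values. Solute carriers, the membrane transporters, had 168 of 364 members at 1 TPM or more (46.2%, against 54.9% of all protein-coding genes). The mitochondrial ADP/ATP carrier SLC25A5 was first (1706 ± 57.5 TPM). Others of the abundant members, chosen after their values were seen, were the phosphate carrier SLC20A1 (378 ± 12.5 TPM), the amino acid transporter SLC7A5 (299 ± 5.75 TPM) and the glucose transporter SLC2A1 (213 ± 8.35 TPM). Tubulins, the subunits of microtubules, were led by TUBB (2677 ± 102 TPM) and TUBB4B (1932 ± 85.4 TPM). A level of 1 TPM was reached by 11 of 21 (52.4%), close to the 54.9% of all protein-coding genes.

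Replication-independent histone genes led the histone list, with H2AFZ at 703 ± 30.04 TPM, H2AFX at 564 ± 28.6 TPM and H3F3B at 342 ± 10.7 TPM. Of 87 histone genes, 23 had no count (26.4%), close to the 25.7% of all protein-coding genes. A level of 1 TPM was reached by 44 (50.6%), against 54.9%. Replication-dependent histone transcripts lack a poly(A) tail, and the libraries were selected on poly-T. An effect of this selection on the histone counts was not tested. Of 75 histone promoters found, 36 had TATAAA in the window described above, among them HIST1H2BK (131 ± 11.2 TPM).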
